A study of Sus scrofa with 15 samples.

Results

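Hormone receptors and a hormone-activating enzyme were followed in the Longissimus muscle of 15 pigs. The 5 genes were the growth hormone receptor (GHR), the glucocorticoid receptor (NR3C1), thyroid hormone receptor alpha (THRA), estrogen receptor alpha (ESR1) and HSD11B1, the enzyme that regenerates active cortisol inside cells. They were found by gene name among the non-control probes of the array, which gave 18 of 43603 probes. GHR had 4 probes, NR3C1 had 3, THRA had 1, ESR1 had 4 and HSD11B1 had 6. After the filter described below, 16 of the 18 probes and all 5 genes remained, out of 31984 probes and 4673 genes tested in all.

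The pigs came from 2 lines that differ in residual feed intake (RFI), the feed an animal eats beyond or below what its growth and size predict. The low_RFI pigs (labelled RFIneg, n = 7) eat less than predicted and the high_RFI pigs (labelled RFIpl, n = 8) eat more. All 15 were sampled at 20 kg body weight and had free access to feed. The labels do not give age or sex. Each pig was measured once, on its own 1-colour Agilent array, and the p-values below therefore measure the spread between pigs.

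Growth hormone from the pituitary binds its receptor on the cell surface, which activates the kinase JAK2 and STAT transcription factors and raises IGF1. Glucocorticoids, thyroid hormone and estrogens enter the cell and bind nuclear receptors that act directly as transcription factors. Glucocorticoids promote protein breakdown in skeletal muscle, thyroid hormone sets its metabolic rate and contractile type, and growth hormone favours its growth.

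Detection was complete for most of these genes. A spot was called well above background by the scanner software. All 4 GHR probes, all 3 NR3C1 probes, the THRA probe and all 6 HSD11B1 probes were well above background on 15 of 15 arrays. ESR1 was divided. Its probe at base 357 of the transcript was detected on 15 arrays and its probe at base 1117 on 14 arrays (6 low_RFI and 8 high_RFI), whereas the probe at base 1536 was detected on 1 array, that of low_RFI replicate 4, and the probe at base 1539 on 0 arrays. The last 2 were not tested, and no level is given for them. No spot of these genes was saturated or marked as non-uniform.

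The sequences of the ESR1 probes are shown because they decide which part of the transcript was seen. Each probe is 60 bases long, is given 5′ to 3′ as deposited, and is named by its first base on the transcript that the array file lists for it. Capitals mark the 57 bases that the 2 untested probes share, so these 2 probes are not separate measurements of ESR1.
ESR1 base 357: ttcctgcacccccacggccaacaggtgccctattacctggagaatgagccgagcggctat
ESR1 base 1117: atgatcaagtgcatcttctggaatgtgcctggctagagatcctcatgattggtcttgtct
ESR1 base 1536: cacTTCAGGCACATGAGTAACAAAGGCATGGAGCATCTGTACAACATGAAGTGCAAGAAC
ESR1 base 1539: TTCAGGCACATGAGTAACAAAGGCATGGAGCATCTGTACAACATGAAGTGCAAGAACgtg

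Further probes of GHR, NR3C1, THRA and HSD11B1 whose values are described below are also shown, to place them on their transcripts. The probes that stand for GHR, NR3C1 and HSD11B1 in the line test, at bases 2700, 3187 and 1285, are named only. Capitals mark the 45 bases that the GHR probe at base 1857 shares with the GHR probe at base 1872, and the 17 bases shared by the HSD11B1 probes at bases 769 and 812. Probes that overlap in this way are not separate measurements of the gene.
GHR base 1857: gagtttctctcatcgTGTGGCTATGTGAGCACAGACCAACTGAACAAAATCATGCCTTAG
NR3C1 base 605: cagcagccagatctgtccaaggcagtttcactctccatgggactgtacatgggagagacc
NR3C1 base 2007: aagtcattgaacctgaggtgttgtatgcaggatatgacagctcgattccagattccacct
THRA base 1187: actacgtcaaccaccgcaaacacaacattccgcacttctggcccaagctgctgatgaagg
HSD11B1 base 105: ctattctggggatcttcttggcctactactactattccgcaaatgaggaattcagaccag
HSD11B1 base 625: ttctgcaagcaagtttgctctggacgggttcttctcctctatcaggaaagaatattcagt
HSD11B1 base 769: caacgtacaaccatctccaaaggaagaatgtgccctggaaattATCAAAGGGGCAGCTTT
HSD11B1 base 812: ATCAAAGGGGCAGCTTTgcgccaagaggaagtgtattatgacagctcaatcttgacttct

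Levels are log2 of the processed signal minus the 75th percentile of the same array, so 0 stands for the signal that 75% of the probes stay below, and they are compared between pigs at 1 probe, never between probes. Where a gene had several tested probes, the one with the highest mean level stood for it. None of the 5 genes passed the test between the lines (limma, two-sided, Benjamini-Hochberg adjustment over 4673 genes). The background was almost as empty, because 1 of the 4673 genes passed in either direction (0.0214%), and 335 genes (7.17%) had an unadjusted p below 0.05. The 5 genes had 0 members at that unadjusted level. Of the 5 differences, 1 was above 0 (GHR) and 4 were below 0, and the interval of each included 0 in this fit without blocks. Across all 4673 genes, the median size of a difference was 0.097 and the median standard error was 0.13.

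**Figure D1:**
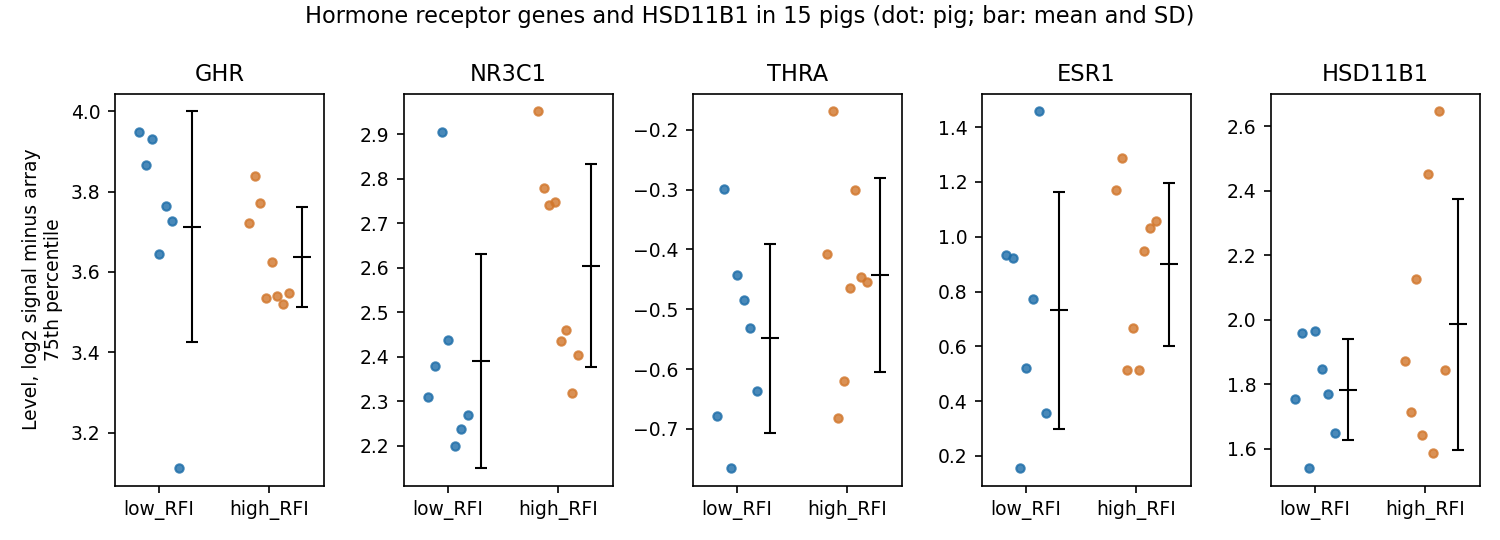
Level of each gene (log2 signal minus the 75th percentile of the array, at the probe used for the gene) in the 7 low_RFI pigs and the 8 high_RFI pigs. Dots are pigs, and bars beside them are the mean and SD. The lines overlap for all 5 genes, GHR has 1 low_RFI pig at 3.11 below all others, and HSD11B1 has 2 high_RFI pigs at 2.45 and 2.65 above all others.

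GHR, the receptor through which growth hormone reaches muscle, had a small difference in mean between the lines that the test did not separate from 0. At its probe at base 2700 the lowest, median and highest levels were 3.11, 3.76 and 3.95 in low_RFI pigs, against 3.52, 3.59 and 3.84 in high_RFI pigs. The mean was 3.71 ± 0.29 in low_RFI pigs (SD, n = 7) and 3.64 ± 0.12 in high_RFI pigs (SD, n = 8). The difference was 0.075 ± 0.11 (SE), which is a fold of 1.05 with a 95% interval of 0.892 to 1.24, and the adjusted p of limma was 0.980. A low_RFI pig was above a high_RFI pig in 41 of 56 pairs, so the lines overlapped widely. The interval thus reaches from a lower to a higher level in low_RFI muscle.

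The spread of GHR in low_RFI pigs came from 1 animal. Low_RFI replicate 7 had the lowest level of all 15 pigs at each of the 4 GHR probes, at 1.28, 0.73, 3.11 and 2.41 for the probes at bases 1857, 1872, 2700 and 2760. The other 6 low_RFI pigs ranged upwards from 1.80, 1.30, 3.64 and 2.86 at those probes. Without that pig the difference at base 2700 was 0.18, with an unadjusted p of 0.046 and an adjusted p of 0.733 (limma), so the gene still did not pass. The same pig had the highest mean level of 9 adipocyte markers among all pigs, at 2.29, where the other low_RFI pigs had 0.79 to 1.87 and the high_RFI pigs 0.54 to 2.13. Over the 15 pigs GHR and these markers had an r of −0.508 and a rho of −0.421 (permutation test, adjusted p = 0.611 and 0.675). The r was 0.0022 without the 2 pigs farthest from the median marker level. It was −0.0040 in the arrays numbered 1 to 8 and −0.684 in those numbered 55 to 62. The part of the fat content of that sample in its GHR level was not tested.

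**Figure D2:**
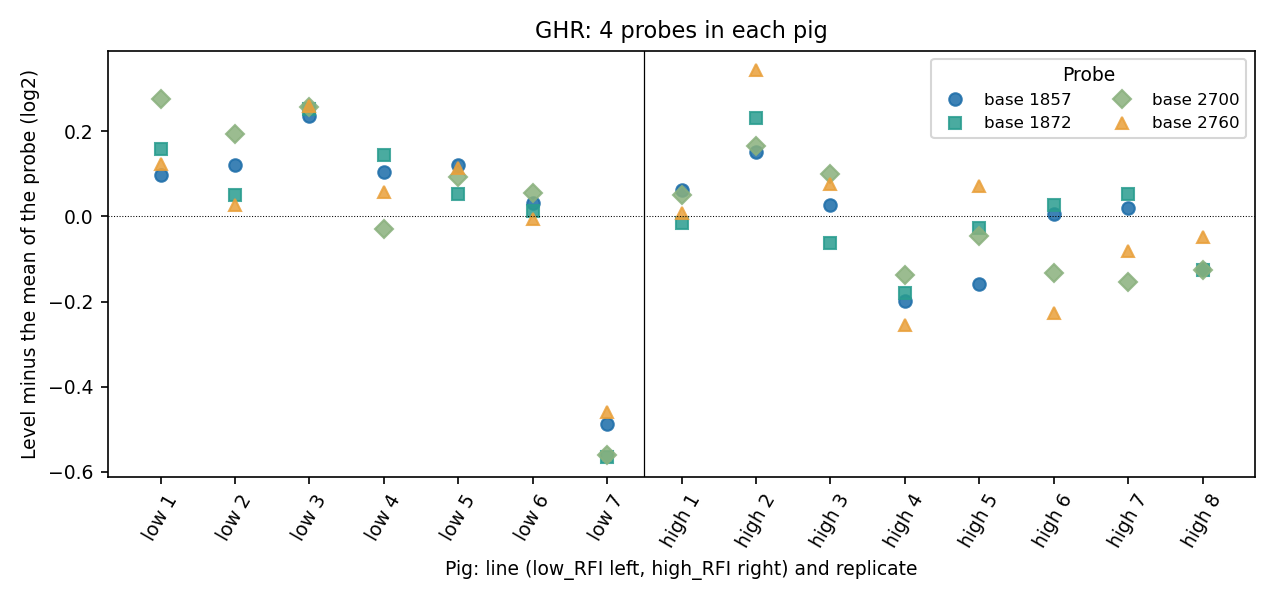
Level of GHR in each pig at its 4 probes, each as the difference from the mean of that probe over the 15 pigs (log2). Low_RFI pigs stand left of the line and high_RFI pigs right of it. Low_RFI replicate 7 is lowest at all 4 probes, and the probes follow each other across pigs.

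The 4 GHR probes ranked the pigs alike. Pearson's r between 2 probes lay between 0.825 and 0.943 and Spearman's rho between 0.654 and 0.864 over 15 pigs, in 6 pairs of probes (permutation test, largest adjusted p = 0.000685 for r and 0.0145 for rho, over 25 pairs within the 5 genes). Without the 2 pigs farthest from the median the r was 0.562 to 0.812. The line differences at the 4 probes lay between 0.028 and 0.075, with an adjusted p between 0.984 and 0.995 over all probes.

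NR3C1 encodes the receptor that binds cortisol and moves to the nucleus. Its level at base 3187 was 2.20, 2.31 and 2.91 (lowest, median and highest) in low_RFI pigs, against 2.32, 2.60 and 2.95 in high_RFI pigs. The mean was 2.39 ± 0.24 in low_RFI pigs (SD, n = 7) and 2.60 ± 0.23 in high_RFI pigs (SD, n = 8). The difference of −0.21 ± 0.12 (SE) had a 95% interval of −0.47 to 0.043 and an adjusted p of 0.783 (limma, rank 576 of 4673 genes by p). In 11 of 56 pairs the low_RFI pig was above the high_RFI pig, and low_RFI replicate 3, at 2.91, was the one low_RFI pig among the highest levels.

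All 3 NR3C1 probes had a difference below 0. At base 2007 the levels were 0.29, 0.58 and 0.92 in low_RFI pigs, against 0.65, 0.78 and 1.07 in high_RFI pigs. This difference of −0.24 ± 0.096 (SE) had an interval of −0.45 to −0.036 that did not include 0, with an unadjusted p of 0.024 and an adjusted p of 0.690 over 31984 probes (limma). Of those probes 0 passed the adjusted test and 2124 (6.64%) had an unadjusted p below 0.05, and 1 of the 16 tested probes of these genes did. At base 605 the difference was −0.10 ± 0.13 (SE). The 3 probes had an r of 0.582 to 0.903 with each other over the 15 pigs (permutation test, largest adjusted p = 0.0289), and 0.534 to 0.850 without the 2 pigs farthest from the median. Spearman's rho was 0.529 to 0.829, and by rho the pair at bases 605 and 2007 did not pass (adjusted p = 0.0569).

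NR3C1 also differed between 2 runs of arrays. The numbers in the deposited array names form 2 runs, 1 to 8 and 55 to 62, and both lines are in both runs. What the numbers stand for is not given in the sources used here. With line as a term, NR3C1 at base 3187 was lower in arrays 55 to 62 (n = 7) than in arrays 1 to 8 (n = 8). The difference was −0.34 ± 0.087 (SE), with an adjusted p of 0.0433 (limma). Of the 4673 genes, 168 (3.6%) passed this contrast, 65 of them (1.39%) in the same direction. The level at base 3187 was 2.20 to 2.46 in arrays 55 to 62 and 2.31 to 2.95 in arrays 1 to 8. Without line as a term, the difference in mean between the runs was −0.42 at base 605 and −0.14 at base 2007. At base 2007 the levels were 0.29 to 0.99 in arrays 55 to 62 and 0.56 to 1.07 in arrays 1 to 8. The run contrast was not tested at these probes. Within the runs, the low_RFI minus high_RFI difference of NR3C1 was −0.17 in arrays 55 to 62 and −0.30 in arrays 1 to 8. The line difference therefore had the same sign in both runs, and the interaction of line and run had an adjusted p of 0.972. With the run as a block the difference was −0.24 ± 0.087 (SE), with an unadjusted p of 0.015 and an adjusted p of 0.505 (limma), so NR3C1 still did not pass.

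The other 4 genes did not pass the run contrast. GHR was lower in arrays 55 to 62 by a difference of −0.23 (adjusted p = 0.185, limma), and its line difference was −0.024 in that run and 0.13 in arrays 1 to 8. The run differences of HSD11B1, ESR1 and THRA were 0.14, 0.094 and 0.027, with an adjusted p of 0.626, 0.787 and 0.885 (limma).

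HSD11B1 regenerates cortisol from inactive cortisone in the endoplasmic reticulum, so it sets how much ligand reaches the glucocorticoid receptor. At base 1285 its levels were 1.54, 1.77 and 1.96 (lowest, median and highest) in low_RFI pigs, against 1.59, 1.86 and 2.65 in high_RFI pigs. The mean was 1.78 ± 0.16 in low_RFI pigs (SD, n = 7) and 1.99 ± 0.39 in high_RFI pigs (SD, n = 8). The difference was −0.20 ± 0.15 (SE), with an interval of −0.52 to 0.12 and an adjusted p of 0.878 (limma). The medians of the lines lay close together, and the difference in mean came largely from high_RFI replicates 7 and 5, at 2.65 and 2.45. Without high_RFI replicate 7 it was −0.11. Whether the SD differs between the lines was not tested.

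The same 2 pigs were the highest of all at 5 of the 6 HSD11B1 probes. At bases 105, 625, 769 and 812, replicate 7 had −0.76, 1.07, 1.04 and 0.88 and replicate 5 had −1.47, 0.69, 0.70 and 0.69. The highest low_RFI levels at these probes were −1.61, 0.26, 0.26 and 0.099. At base 105 replicate 5 lay close to the next high_RFI pigs, at −1.57 and −1.58. The probe at base 1127 gave another picture, with 0.14 in replicate 7 and 1.29 in replicate 5. At that probe replicate 7 sat near the high_RFI median of 0.12, whereas replicate 5 was again the highest pig.

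**Figure D3:**
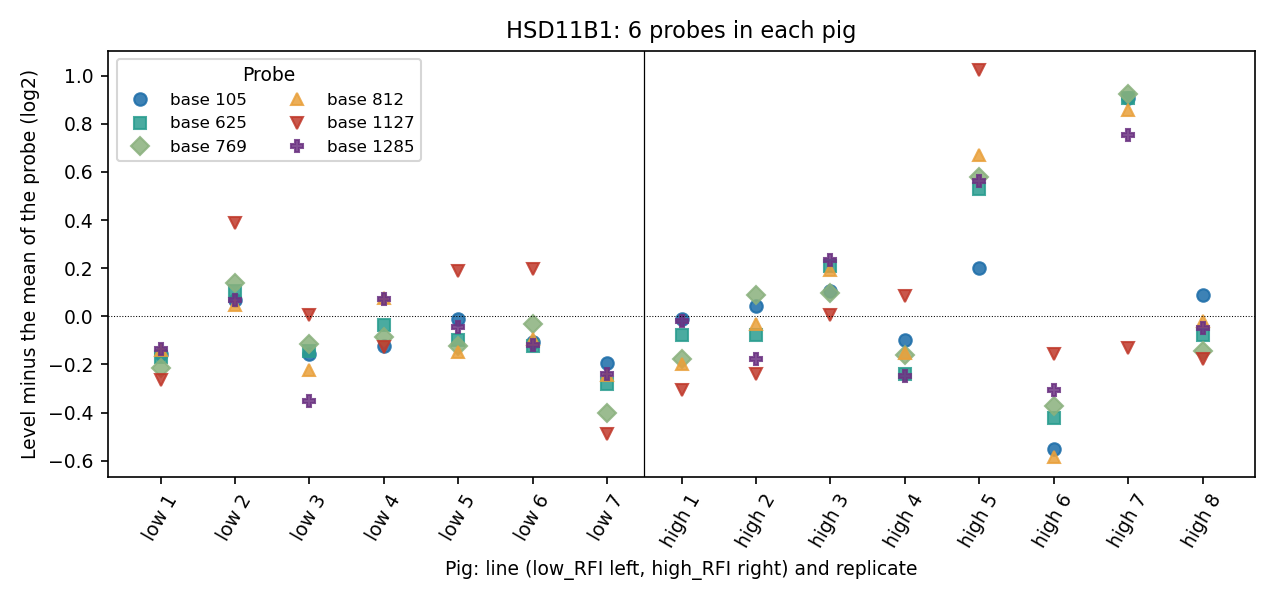
Level of HSD11B1 in each pig at its 6 probes, each as the difference from the mean of that probe over the 15 pigs (log2). Low_RFI pigs stand left of the line and high_RFI pigs right of it. High_RFI replicates 7 and 5 are the highest pigs at 5 probes, and the probe at base 1127 departs from the other 5 in high_RFI replicate 7.

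Over the 15 pigs, the probe at base 1127 had an r of 0.193 to 0.494 with the other 5 HSD11B1 probes, while the 10 pairs among those 5 had an r of 0.850 to 0.971 (permutation test, adjusted p from 0.0932 to 0.428 for its pairs and at most 0.000263 for the 10). Spearman's rho was 0.279 to 0.607 for its pairs, with 1 of 5 past the adjustment at 0.0252, and 0.689 to 0.914 for the 10. Without the 2 pigs farthest from the median the r was 0.0416 to 0.606 for its pairs and 0.594 to 0.903 for the 10. Its line difference was −0.027 ± 0.18 (SE), and the other 5 lay between −0.22 and −0.18. The smallest adjusted p of the 6 probes was 0.903 over all probes (limma).

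Adipose tissue and immune cells also express HSD11B1. The mean level of 9 tested adipocyte markers out of 10 was 0.79 to 2.29 in low_RFI pigs and 0.54 to 2.13 in high_RFI pigs. High_RFI replicates 7 and 5 had 2.13 and 1.76, the highest of their line, and low_RFI replicate 7, at 2.29, had an HSD11B1 level of 1.65. Over the 15 pigs HSD11B1 and these markers had an r of 0.231 and a rho of −0.0214 (permutation test, adjusted p = 0.824 and 0.972). The r was −0.624 in arrays 1 to 8 and 0.504 in arrays 55 to 62. The mean level of 5 tested leukocyte markers out of 10 was −1.60 to 0.27 in low_RFI pigs and −1.50 to 0.70 in high_RFI pigs, with high_RFI replicate 5 highest and replicate 7 at −1.14. The adipocyte marker PLIN1 and the leukocyte marker CD4 were among those not above background on enough arrays to be tested. The part of these cells in the HSD11B1 levels was not tested. In whole muscle, more cells of a type and more RNA per cell cannot be told apart.

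THRA encodes the thyroid hormone receptor that predominates in skeletal muscle. It had the narrowest spread of the 5 genes, and 15.8% of the 4673 genes had a smaller SD within lines. Its levels were −0.77, −0.53 and −0.30 (lowest, median and highest) in low_RFI pigs, against −0.68, −0.45 and −0.17 in high_RFI pigs. The difference was −0.11 ± 0.091 (SE), with an interval of −0.30 to 0.087 and an adjusted p of 0.912 (limma). A low_RFI pig was above a high_RFI pig in 18 of 56 pairs. The lines overlapped over most of their range.

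ESR1 encodes estrogen receptor alpha and had the widest spread of the 5, with 72.3% of genes showing a smaller SD within lines. At base 357 its levels were 0.16, 0.77 and 1.46 (lowest, median and highest) in low_RFI pigs, against 0.51, 0.99 and 1.29 in high_RFI pigs. The lowest and the highest of all pigs, replicates 3 and 6, were both low_RFI. The mean was 0.73 ± 0.43 in low_RFI pigs (SD, n = 7) and 0.90 ± 0.30 in high_RFI pigs (SD, n = 8). The difference was −0.17 ± 0.18 (SE), with an interval of −0.55 to 0.21 and an adjusted p of 0.946 (limma).

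The probe at base 1117 did not follow the one at base 357. Over the 15 pigs their r was −0.161 and their rho −0.0429 (permutation test, adjusted p = 0.580 and 0.883 over 25 pairs of probes). Its line difference was −0.11 ± 0.16 (SE), with an adjusted p of 0.984. Which ESR1 transcripts the probes measure cannot be told from these levels, and the result for ESR1 rests on the probe at base 357. No other ESR1 probe bore out its values, since those at bases 1536 and 1539 were not tested. Whether the probe at base 357 follows ESR1 itself was not tested either.

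**Figure D4:**
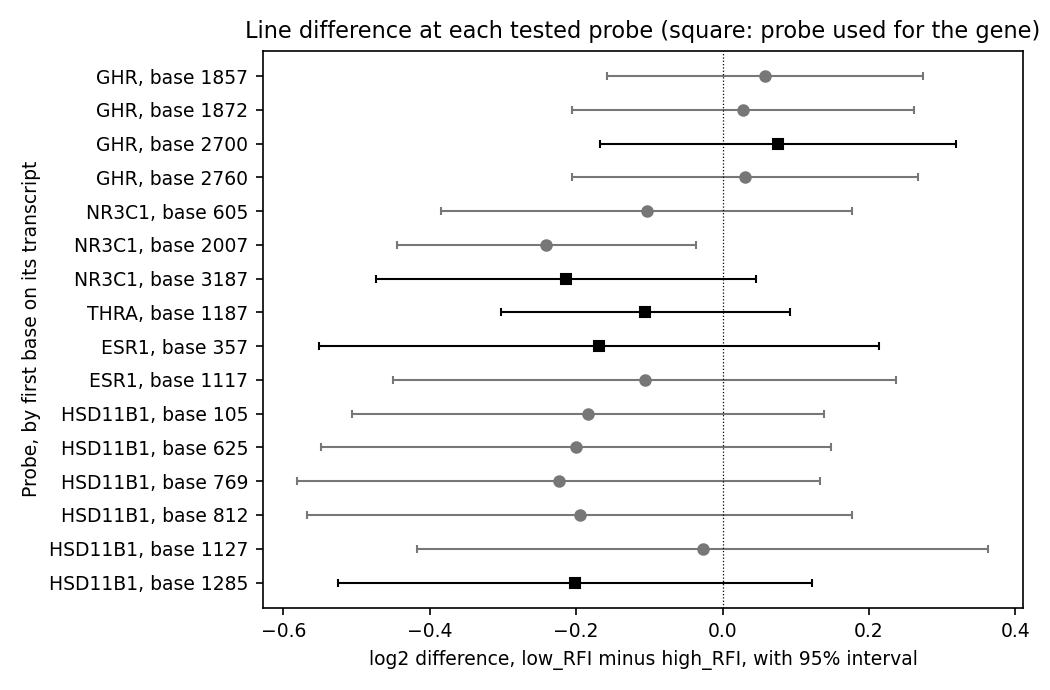
Line difference (log2, low_RFI minus high_RFI) at each of the 16 tested probes with its 95% interval. Squares mark the probe used for the gene. The interval includes 0 at 15 probes, and the exception is NR3C1 at base 2007, from −0.45 to −0.036.

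ESR1, as read by the probe at base 357 alone, was set against the markers of other cell and fibre types, a comparison chosen after the values were seen. Of the 35 relations between the 5 genes and 7 marker lists, the smallest p was that of ESR1 with 8 markers of slow fibres, the oxidative fibre type of muscle. Pearson's r was 0.713 and Spearman's rho 0.711 over 15 pigs (permutation test, p = 0.00312 and 0.00375, adjusted p = 0.131 for both). The r was 0.583 without the 2 pigs farthest from the median marker level, 0.698 in arrays 1 to 8 and 0.812 in arrays 55 to 62. No relation passed the adjustment. Low_RFI replicate 6, highest for ESR1, also had the highest mean level of slow fibre markers, at 7.80, while low_RFI replicate 3, lowest for ESR1, had 6.20. All 8 slow fibre markers were lower in low_RFI pigs on average, 0 of them past the test, with means per pig of 6.20 to 7.80 in low_RFI pigs and 6.08 to 7.63 in high_RFI pigs. The part of fibre type in the ESR1 levels was not tested.

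Skeletal muscle markers were at a high level in every sample. The mean level of 11 tested skeletal muscle markers out of 13 was 9.19 to 9.55 in low_RFI pigs and 9.24 to 9.52 in high_RFI pigs. On 3 tested liver markers out of 5, high_RFI replicate 6 stood apart with a mean level of 1.87, where the low_RFI pigs lay between −1.63 and −0.093 and the other high_RFI pigs between −2.11 and −0.10. Without that pig the line differences were 0.061 for GHR, −0.23 for NR3C1, −0.085 for THRA, −0.16 for ESR1 and −0.26 for HSD11B1, and none passed (adjusted p of 0.908 or more, limma). The share of probes well above background ranged from 61.7% to 79.5% between arrays, the 75th percentile of signal was 319 to 441, and 0 spots were saturated.

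The 5 genes did not vary together beyond what the test could separate. Among the 10 pairs, THRA and ESR1 had the largest correlation, with an r of 0.600 and a rho of 0.564 over 15 pigs (permutation test, p = 0.0188 and 0.0319, adjusted p = 0.319 for both). Without the 2 pigs farthest from the median of THRA the r was 0.348. It was 0.751 in arrays 1 to 8 and 0.313 in arrays 55 to 62. GHR and NR3C1, the surface and the nuclear receptor of the main growth and stress hormones, had an r of 0.303, but it was −0.194 in arrays 1 to 8 and −0.085 in arrays 55 to 62. NR3C1 and HSD11B1 had an r of −0.227, with −0.312 in arrays 1 to 8 and 0.150 in arrays 55 to 62. Within lines, NR3C1 and HSD11B1 had −0.489 in low_RFI pigs and −0.482 in high_RFI pigs, and GHR and NR3C1 had 0.357 and 0.691. THRA and ESR1 had 0.420 in low_RFI pigs and 0.772 in high_RFI pigs. THRA and HSD11B1 had 0.915 and −0.267, and 0.915 was the largest value within a line among the 10 pairs. The values within lines were not tested. With line means subtracted, NR3C1 and HSD11B1 had −0.442 (−0.530 in arrays 1 to 8, −0.710 in arrays 55 to 62). GHR and NR3C1 then had 0.435, with 0.116 and −0.361 in the same runs. Neither NR3C1 and HSD11B1 nor GHR and NR3C1 passed the test (permutation test, adjusted p = 0.930 for r and for rho, and 0.367 to 0.469 with line means subtracted).

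The genes most like each member over the 15 pigs are given as a description, picked by the highest Pearson's r among 4609 genes with a value in every pig. For GHR they were RORA, FBXL4, SIT1, CAMKK2 and KCNG1, with an r of 0.832 to 0.770. The r of SIT1 and CAMKK2 was 0.361 and 0.352 in arrays 1 to 8, against 0.968 and 0.826 in arrays 55 to 62. RORA, FBXL4 and KCNG1 had 0.597 to 0.816 in the runs. RORA is itself a nuclear receptor and CAMKK2 a kinase upstream of AMPK. For NR3C1 they included IRF2BP1, DRG1, EFNA1 and POU2F1, with an r of 0.805 to 0.782. For THRA they included LHB, NOG, SPATA20 and FHL3, with an r of 0.787 to 0.763.

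For ESR1, as read by the probe at base 357 alone, the list was ATP5F1, IDH2, LHB, PLIN5 and OGG1, with an r of 0.851 to 0.802. ATP5F1 is a subunit of mitochondrial ATP synthase, IDH2 a mitochondrial isocitrate dehydrogenase and PLIN5 a coat protein of lipid droplets in oxidative tissue. LHB was on the lists of both THRA and ESR1. For HSD11B1 they were OSTM1, NRDE2, TMEM79, RNF4 and CD55, with an r of 0.742 to 0.689. The r of TMEM79 was 0.081 in arrays 1 to 8 and 0.838 in arrays 55 to 62, and the others had 0.449 to 0.933 in the runs.

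Other hormone receptors were taken from a list of 37. Of these, 28 were on the array under a single gene name and 20 were tested, of which 7 were higher in low_RFI pigs, 13 were higher in high_RFI pigs and 0 passed in either direction. The median difference was −0.025, beside 0.0146 over all 4673 genes. Estrogen receptor beta (ESR2) and the receptors of progesterone (PGR), vitamin D (VDR), prolactin (PRLR), leptin (LEPR) and the melanocortins (MC4R and MC2R) were on the array but not above background on enough arrays, as was the adrenergic receptor ADRA1A.

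Among the tested receptors TSHR, the receptor of thyrotropin, had the smallest unadjusted p. Its level was −3.99, −3.37 and −2.54 in low_RFI pigs (lowest, median and highest), against −4.64, −4.01 and −3.29 in high_RFI pigs. The difference was 0.67 ± 0.21 (SE) with an unadjusted p of 0.007 and an adjusted p of 0.470 (limma). The probe was well above background on 14 arrays, and with normexp background correction the difference was 0.058 (unadjusted p = 0.741). RXRG, the retinoid X receptor that pairs with thyroid hormone receptors, had a difference of −0.47 ± 0.28 (SE). THRB, the other thyroid hormone receptor, had −0.36 ± 0.20 (SE), and CALCR, the calcitonin receptor, had 0.21 ± 0.18 (SE). The adjusted p of RXRG, THRB and CALCR was 0.776 to 0.912 (limma). The THRB probe was also low, with means of −3.73 in low_RFI pigs and −3.36 in high_RFI pigs. It was well above background on 14 arrays.

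The growth hormone signalling list had 18 tested genes of 23, with 10 higher in low_RFI pigs, 8 higher in high_RFI pigs, 0 past the test and a median difference of 0.0086. JAK2, the kinase bound to GHR, was −1.81, −1.43 and −0.75 (lowest, median and highest) in low_RFI pigs, against −2.05, −1.79 and −1.54 in high_RFI pigs. Its difference was 0.37 ± 0.15 (SE, adjusted p = 0.635, limma), but the other of its 2 probes had −0.019. SOCS3, the feedback inhibitor of JAK2, was −1.71, −0.71 and 1.11 in low_RFI pigs, against −0.57, 0.75 and 1.73 in high_RFI pigs. Its difference was −0.997 ± 0.43 (SE, adjusted p = 0.677, limma), and the other of its 2 probes had −0.063. IGF1, the growth factor induced by growth hormone, had 0.22 ± 0.10 (SE, adjusted p = 0.693). SH2B1, an adaptor that binds JAK2, had −0.22 ± 0.11 (SE, adjusted p = 0.751, limma), with no value for 1 high_RFI pig.

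**Figure D5:**
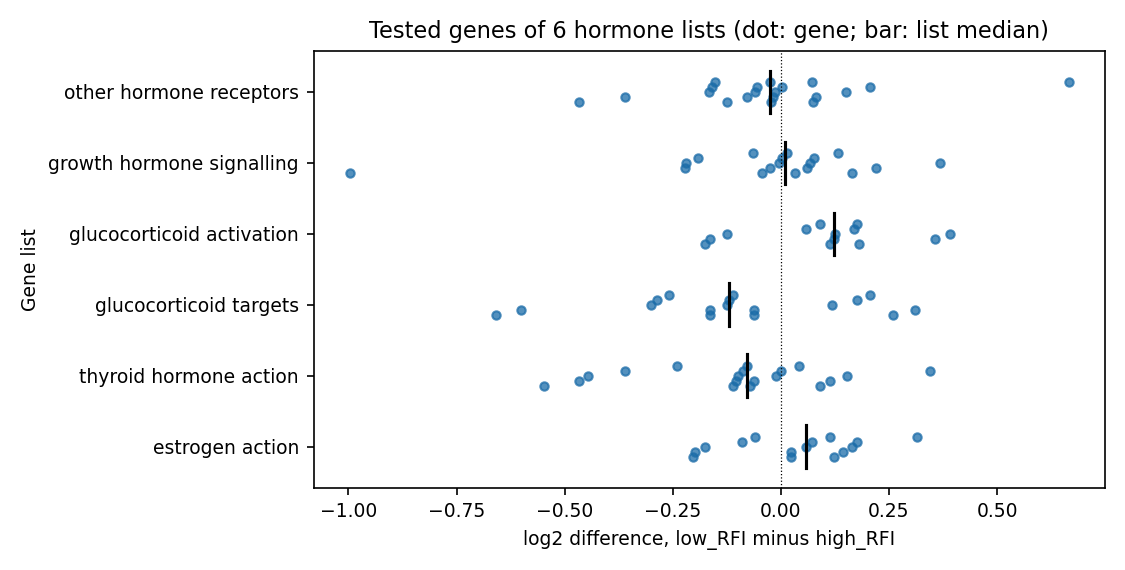
Line difference (log2, low_RFI minus high_RFI) of each tested gene in 6 hormone lists, with a bar at the median of the list. Most genes lie within 0.5 of 0, 0 genes passed the test, and the medians lie between −0.12 and 0.12.

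Glucocorticoid action was divided into its activation and its targets. The activation list holds enzymes of cortisol metabolism, chaperones that fold the receptor and its coactivators. Of its 13 tested genes of 21, 10 were higher in low_RFI pigs, 3 were higher in high_RFI pigs and 0 passed, with a median of 0.12. The chaperones DNAJB1 and HSP90AA1 had differences of 0.39 ± 0.24 and 0.36 ± 0.23 (SE), HSD11B2, the enzyme that inactivates cortisol, had 0.18 ± 0.12 (SE), and the coactivator NCOA1 had −0.18 ± 0.094 (SE). Without low_RFI replicate 2 the differences of DNAJB1 and HSP90AA1 were 0.15 and 0.19. The adjusted p of the 4 genes lay between 0.765 and 0.844 (limma).

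The list of glucocorticoid targets had 17 tested genes of 28, with 5 higher in low_RFI pigs, 12 higher in high_RFI pigs, 0 past the test and a median of −0.12. DDIT4, an inhibitor of mTORC1, had −0.30 ± 0.18 (SE), and PDK4, which restrains glucose oxidation, had −0.66 ± 0.61 (SE), with −1.22 and −0.42 when low_RFI replicates 1 and 7 were left out. Myostatin (MSTN), which limits muscle growth, had 0.31 ± 0.20 (SE), and FOXO1, a transcription factor of muscle protein breakdown, had 0.18 ± 0.13 (SE). The adjusted p of these 4 genes was 0.811 to 0.932 (limma).

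Of the thyroid hormone action list 19 of 32 genes were tested, with 6 higher in low_RFI pigs, 13 higher in high_RFI pigs, 0 past the test and a median of −0.078. Malic enzyme (ME1), a thyroid hormone target that supplies NADPH for fat synthesis, was −1.81, −1.27 and 0.091 (lowest, median and highest) in low_RFI pigs, against −1.06, −0.66 and −0.0062 in high_RFI pigs. Its difference was −0.55 ± 0.23 (SE), with an unadjusted p of 0.033 and an adjusted p of 0.668 (limma). DIO2, which converts thyroxine to its active form, had 0.35 ± 0.20 (SE, adjusted p = 0.786, limma).

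The estrogen action list had 15 tested genes of 30, with 10 higher in low_RFI pigs, 5 higher in high_RFI pigs, 0 past the test and a median of 0.059. HSD17B4, a peroxisomal enzyme that oxidises estradiol and fatty acids, had −0.20 ± 0.096 (SE), with an unadjusted p of 0.0498 and an adjusted p of 0.696 (limma). CTSD, the lysosomal protease cathepsin D, had −0.20 ± 0.10 (SE) and the transcription factor XBP1 had 0.14 ± 0.10 (SE), with an adjusted p of 0.751 and 0.868 (limma).

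On simulated data with the same numbers of pigs and the spread of 4609 genes, 50 genes were changed at each of 1.25-, 1.5-, 2- and 3-fold. The line test passed 22%, 66%, 88% and 86% of them, and 136 genes in all. In the measured data 1 of 4673 genes passed, so the adjustment was stricter there than in the simulation. These shares therefore do not give the power of the test for the 5 genes. The 95% intervals of the 5 genes, as folds of low_RFI over high_RFI, ran from 0.683 at the lowest (ESR1) to 1.24 at the highest (GHR).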

How the data were processed

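Total RNA from frozen Longissimus samples of 15 pigs was labelled with Cy3 and hybridised to 1-colour arrays. Scanner signals are intensity values, which the authors' software had background-subtracted, per the file headers. Other columns, per the file headers, mark saturated spots, non-uniform spots and those well above background. The authors' deposited table holds log2 values, with R 2.10.0 named in the submitters' processing notes. These were checked against the scanner signals and are log2 signal minus the array median over 29364 spots, with a largest difference of 4.93e-08. It was used as an alternative and lacks the ESR1 probes at bases 1536 and 1539.

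From each log2 signal the 75th percentile of its array was subtracted, taken over the 43603 probes that are not controls. Non-uniform spots were left out. A probe was tested if well above background on at least 7 of 15 arrays, with at least 4 values per line. Names came from the files, matched to RefSeq symbols, gene numbers or transcripts: 12160 probes had 1 symbol, 334 a gene number only and 31109 several or none. The lines were compared with limma 3.58.1 in R 4.3.3 (lmFit, eBayes, two-sided, Benjamini-Hochberg, threshold 0.05, 95% intervals). Correlations used 100000 permutations. The named genes are every member, up to 4 genes of smallest p in each list and the 5 genes most like each member, of which some are not reported here. The members and lists were chosen with earlier results of these data known. Alternatives were normexp (offset 50), quantile and median scaling, other filters, slide, run and replicate blocks, array weights, the mean over probes, and each pig left out. The number of arrays limits the precision. Tests were checked on simulated data.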

Additional observations from a re-analysis of the deposited data

Results flagged for a closer look

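Among 32 groups of pigs examined (16 probes in 2 lines), 6 held 1 pig whose gap to the nearest other was large for the range of the group. Chance gives about 1 such group in 20 where groups are separate. Probes of 1 gene were measured in the same pigs and mostly follow each other, so the 6 groups cannot be held against that share. GHR gave 4 of them, all for the same pig and on probes that partly overlap. Low_RFI replicate 7 was lowest at 1.281 (base 1857), 0.7257 (base 1872), 3.112 (base 2700) and 2.407 (base 2760), where the next lowest low_RFI pigs were at 1.8, 1.304, 3.644 and 2.86. For NR3C1 at base 3187, low_RFI replicate 3 was highest at 2.906, above the next low_RFI pig at 2.437. For HSD11B1 at base 1127, high_RFI replicate 5 was highest at 1.29, above the next high_RFI pig at 0.3526.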

How the results depend on the processing

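Each of the 5 genes kept its sign and stayed short of the threshold under 29 alternatives, at an adjusted p of 0.505 or more. The difference ranged from 0.036 to 0.18 for GHR, from −0.30 to −0.14 for NR3C1, from −0.15 to −0.066 for THRA, from −0.29 to −0.073 for ESR1 and from −0.26 to −0.11 for HSD11B1. Single pigs moved several of these values by over 1.5 times. GHR was 0.036, 0.050 and 0.0391 without low_RFI replicates 1, 2 and 3, and 0.18 without replicate 7. It was 0.13 with normexp and 0.048 as the mean of its probes. THRA was −0.069 without low_RFI replicate 3 and −0.066 without high_RFI replicate 2. ESR1 was −0.073, −0.29 and −0.11 without low_RFI replicates 3, 6 and 7, and −0.27 with array weights. HSD11B1 was −0.11 without high_RFI replicate 7. The unadjusted p of NR3C1 fell below 0.05 with the run as a block (0.015), with the replicate block (0.047) and without low_RFI replicate 3 (0.012). Among list genes, TSHR was 0.058 and JAK2 0.16 with normexp, and CTSD was −0.12. As the mean of their probes JAK2 was 0.17, SOCS3 −0.53, IGF1 0.33 and XBP1 0.22. HSP90AA1 was 0.23 with array weights. Single pigs took CALCR to 0.32 and 0.12 (without high_RFI replicates 2 and 3), DNAJB1, HSP90AA1 and DDIT4 to 0.15, 0.19 and −0.20 (without low_RFI replicate 2), PDK4 to −1.22 and −0.42 (without low_RFI replicates 1 and 7), HSD17B4 to −0.13 (without low_RFI replicate 6) and XBP1 to 0.075 (without low_RFI replicate 7). Signs turned at single probes near 0: GHR at base 1872 was −0.0114 and at base 2760 −0.00965 without low_RFI replicate 3, and −0.00356 at base 2760 without high_RFI replicate 4. With single pigs left out, these probes reached up to 0.125 and 0.110. ESR1 at base 1117 was 0.0119 without low_RFI replicate 2, with a lowest value of −0.173. HSD11B1 at base 1127 was 0.0145, 0.0521 and 0.117 without low_RFI replicates 1 and 7 and high_RFI replicate 5, with a lowest value of −0.0942. With normexp CALCR was −0.138, HSD11B2 −0.0324 and DIO2 −0.0111, and the cause was not tested. The count of all genes passing was 1, and it was 0 with normexp, median scaling, the deposited values, no filter, slide as a fixed block, the run as a block or the replicate block. It was 2 with quantile scaling, array weights or the mean over probes, and 0 to 3 when 1 pig was left out. For probes it was 0, with 1 under no filter and 0 to 2 with 1 pig left out, the 2 without low_RFI replicate 7. No list gene passed under any alternative, and no correlation among the 5 genes passed under 3 alternatives. Same-numbered deviations correlated from −0.0383 to 0.306, and 1 of 7 low_RFI pigs correlated best with its own number. Replicate numbers also follow the 2 runs of arrays, so these values cannot tell whether the numbers pair the pigs. With the replicate block the differences were 0.062 for GHR, −0.24 for NR3C1, −0.11 for THRA, −0.15 for ESR1 and −0.22 for HSD11B1. ESR1 at base 1117 lies near background, which limits its precision.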
